A study of Mus musculus with 18 samples.

Results

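The 2 clusters that encode miR-23, miR-27 and miR-24 were followed in small RNA libraries of mouse adipose-derived stromal cells (ASC) and of the extracellular vesicles (EVs) these cells release. ASC are mesenchymal cells grown from fat, and EVs are small membrane particles that carry RNA out of cells. The members were chosen by symbol, Mir23a, Mir27a and Mir24-2 on chromosome 8 and Mir23b, Mir27b and Mir24-1 on chromosome 13, and 5 of these 6 had a row among the 2009 miRNA hairpin loci of the count files. Mir24-1 had none under its own identifier.

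Primed EVs (n = 5) came from ASC that had been given interferon gamma for 24 h, and naive EVs (n = 5) from ASC that had not. Primed ASC (n = 4) and naive ASC (n = 4) are cells with and without the same interferon gamma treatment. The labels do not state which cell library goes with which EV library. All 18 libraries carry the labels adult, adipose and strain NGL, and cells of every group were kept for 48 h in alpha MEM with 2% serum depleted of EVs. Cell RNA was taken with TRIzol and RNeasy columns and EV RNA with a SeraMir kit, so the source of the RNA and the way it was isolated cannot be told apart. Naive EV 1 and naive ASC 1 bear a joined number in their titles whose meaning is not stated. By title number, primed EV 1 and primed EV 5 both share the number of primed ASC 5 and naive EV 5, unlike their source names. Whether they are separate preparations is not stated. No label ties the replicates to separate animals, and every p-value here reflects the spread among libraries, which may be technical. Libraries held 180812 to 3052942 counts. All 8 mesenchymal marker loci had counts in every group and together took 62.9% to 67.5% of counts in EV libraries and 23.7% to 44.6% in ASC libraries. The loci of this list did not move together: of its 7 loci tested in naive EVs over naive ASC, Mir143, Mir22 and Mir21a were higher, Mir145a (-2.79) and Mir214 (-2.17) lower, and Mir199a-2 (-0.08) and Mir10b (-0.10) did not pass (log2 fold changes, edgeR). In primed EVs over primed ASC the passing loci kept their signs, Mir199a-2 (1.13) was higher as well, and Mir10b (0.21) again did not pass.

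Each cluster is transcribed as a long primary RNA from which the hairpins are cut, so its miRNAs begin from shared transcription. A mature miRNA finds its targets mainly through its seed, bases 2 to 8 from the 5′ end. miR-27 is known in fat as an inhibitor of adipocyte differentiation that acts on the regulator PPARG, miR-23 is known from human cells for repressing glutaminase, and miR-24 from human cells for repressing cell cycle genes. Together the miRNAs of these clusters are also known for roles in blood vessel growth.

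The 3p arms are shown first because they set how far the paralogs can be told apart. Capitals mark the seed in these mature sequences from RefSeq (GRCm38.p6).
miR-23a-3p: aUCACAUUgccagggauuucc
miR-27a-3p: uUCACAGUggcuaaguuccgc
miR-27b-3p: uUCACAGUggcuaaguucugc
miR-24-3p: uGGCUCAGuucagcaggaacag
The miR-27a-3p and miR-27b-3p arms share the seed UCACAGU. In the next pairs capitals mark the bases that differ when a mature arm is laid without gaps on the hairpin of its paralog.
miR-23a-3p: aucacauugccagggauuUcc
Mir23b hairpin: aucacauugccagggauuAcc
miR-27a-3p: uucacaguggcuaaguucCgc
Mir27b hairpin: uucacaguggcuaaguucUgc
miR-24-2-5p: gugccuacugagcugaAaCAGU
Mir24-1 hairpin: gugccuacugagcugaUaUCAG
Counted from 1 at the 5′ end, with the base of the mature arm first and that of the paralog hairpin second, miR-23a-3p differs from the Mir23b hairpin by U19A and miR-27a-3p from the Mir27b hairpin by C19U. The other 20 of 21 bases are the same in both pairs. All 22 bases of miR-24-3p stand in the hairpins of Mir24-2 and Mir24-1 alike, while miR-24-2-5p differs from the Mir24-1 hairpin at 5 of 22 bases. The 5p arms of miR-23a and miR-27a differ from their paralog hairpins at 7 and 8 of 22 bases.

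On GRCm38, Mir23a (ENSMUSG00000065611) lies on chromosome 8 from 84208518 to 84208592, Mir27a (ENSMUSG00000065444) from 84208672 to 84208758 and Mir24-2 (ENSMUSG00000065541) from 84208815 to 84208921, all on the plus strand within a span of 404 bases. GENCODE places no protein-coding gene over them, and the last bases of Mir24-2 overlap an exon of the long noncoding RNA Gm26532. On chromosome 13 the counted interval of Mir23b (ENSMUSG00000065599) runs from 63300472 to 63300568 and that of Mir27b (ENSMUSG00000065475) from 63300700 to 63300796, on the plus strand inside the gene 2010111I01Rik and opposite the gene Fancc. Mir23b overlaps no annotated exon of another gene there, while Mir27b and Mir24-1 each overlap an exon of 2010111I01Rik. Mir24-1 (ENSMUSG00000105904) lies on chromosome 13 from 63301208 to 63301275.

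The place of Mir24-1 was covered in the files only by the row of Mir3074-1, an miRNA annotated on the opposite strand from 63301180 to 63301296. Counting ignored strand, so reads of either would fall in that row. It held 79 counts over the 18 libraries, at most 15 in any of them and 0 in 2. Mir24-2, the other source of miR-24, held 9566 counts. Mir3074-2 lies opposite Mir24-2 in the annotation and has no row, so reads of either strand fall in the Mir24-2 row. The file headers list no option to count reads that map to several places, which featureCounts then leaves out, so a read of the whole miR-24-3p arm would be counted at neither locus. Which arm the Mir24-2 counts came from was not tested, and the level of mature miR-24 cannot be read from them.

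The first question was how EVs differ from the cells that release them. In EVs of naive and of primed ASC alike, both miR-27 loci and Mir24-2 were higher than in the cells, while both miR-23 loci were lower. The 2 paralogs of miR-23 shared a sign, as did those of miR-27, and each cluster held loci that differed from the cells in opposite directions. Since miR-23 is the first hairpin of both clusters, family and position cannot be told apart, and miR-24 had only 1 counted locus. Whether reads were placed at the right paralog was not tested. Naive EVs showed Mir24-2 at 4.32 times and Mir27a at 2.27 times the naive ASC level, Mir27b at 2.06 times, Mir23a at 0.517 times and Mir23b at 0.333 times. Values are in CPM, counts scaled to a common library size, after TMM scaling, which brings libraries to a common level through the bulk of their loci.

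Mir27b was the most abundant member, at rank 9 of 245 loci tested in both EV groups and at ranks 23 and 20 in primed and naive ASC. It had 12350, 10970, 25760, 20150 and 12750 CPM in naive EV 1 to 5, against 8332, 9637, 8652 and 5271 CPM in naive ASC 1, 3, 4 and 5. It had 17830, 12560, 19000, 20870 and 14760 CPM in primed EV 1 to 5, against 6374, 6335, 5591 and 7346 CPM in primed ASC 2 to 5. Every EV library stood above every ASC library, and naive EV 3 and 4 were the highest of the naive EVs. The log2 fold change was 1.04 (SE 0.24, n = 5 and 4; quasi-likelihood test of edgeR, p adjusted by Benjamini-Hochberg = 0.000964) for naive EVs over naive ASC and 1.41 (SE 0.25, n = 5 and 4; adjusted p = 4.86e-05) for primed EVs over primed ASC.

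Mir27a, whose mature 3p arm has the seed of miR-27b, was counted far less often. It had 530, 520, 824, 659 and 498 CPM in naive EV 1 to 5, against 312, 319, 271 and 164 CPM in naive ASC. Primed EVs had 846, 650, 706, 985 and 709 CPM, against 231, 247, 241 and 290 CPM in primed ASC. Again no ASC library reached the lowest EV library. The log2 fold changes were 1.18 (SE 0.22; edgeR quasi-likelihood test, adjusted p = 0.000102) and 1.63 (SE 0.22; adjusted p = 2.93e-06).

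Mir24-2 showed the largest difference of the members in both comparisons with TMM scaling, whereas with library totals only Mir23b did. It had 670, 677, 1017, 565 and 650 CPM in naive EV 1 to 5, against 163, 214, 206 and 77.8 CPM in naive ASC. Primed EVs had 834, 715, 926, 1192 and 774 CPM, against 189, 226, 241 and 184 CPM in primed ASC. The groups lay far apart, with naive ASC 5 the lowest library and naive EV 3 well above the other naive EVs. The log2 fold changes were 2.11 (SE 0.27; edgeR quasi-likelihood test, adjusted p = 1.14e-06) and 2.09 (SE 0.27; adjusted p = 1.24e-06), which rest on 63 to 234 counts per naive ASC library and 58 to 208 per primed ASC library.

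Mir23a, the first hairpin of the chromosome 8 cluster, went the other way. It had 1161, 884, 1792, 1354 and 1347 CPM in naive EV 1 to 5, against 2494, 2627, 2541 and 2462 CPM in naive ASC. Primed EVs had 1559, 1233, 1612, 2018 and 1366 CPM, against 1445, 2460, 2437 and 2791 CPM in primed ASC. The naive groups did not overlap, and naive ASC varied little (2531 ± 71.6 CPM, SD, n = 4), while primed ASC 2 fell among the primed EV libraries. The log2 fold changes were -0.95 (SE 0.21; edgeR quasi-likelihood test, adjusted p = 0.000622) and -0.55 (SE 0.21; adjusted p = 0.0269). The primed value passed with the filter on low counts but not without one (-0.45, adjusted p = 0.174).

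Mir23b, the first hairpin on chromosome 13, varied between replicates with a coefficient of variation of 36.2% in primed EVs, 48.1% in naive EVs, 45.1% in primed ASC and 12.7% in naive ASC. It had 1076, 646, 1834, 2594 and 1574 CPM in naive EV 1 to 5, against 5217, 4963, 4497 and 3880 CPM in naive ASC. Primed EVs had 1582, 1129, 1917, 3005 and 1938 CPM, against 1503, 5875, 5238 and 4577 CPM in primed ASC. Primed ASC 2 stood apart from the other primed ASC and inside the EV range. The log2 fold changes were -1.59 (SE 0.37; edgeR quasi-likelihood test, adjusted p = 0.000885) and -1.17 (SE 0.37; adjusted p = 0.00873). Without primed ASC 2 the primed differences were -1.51 for Mir23b and -0.77 for Mir23a, both still passing (adjusted p = 0.000144 and 0.000862).

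**Figure D1:**
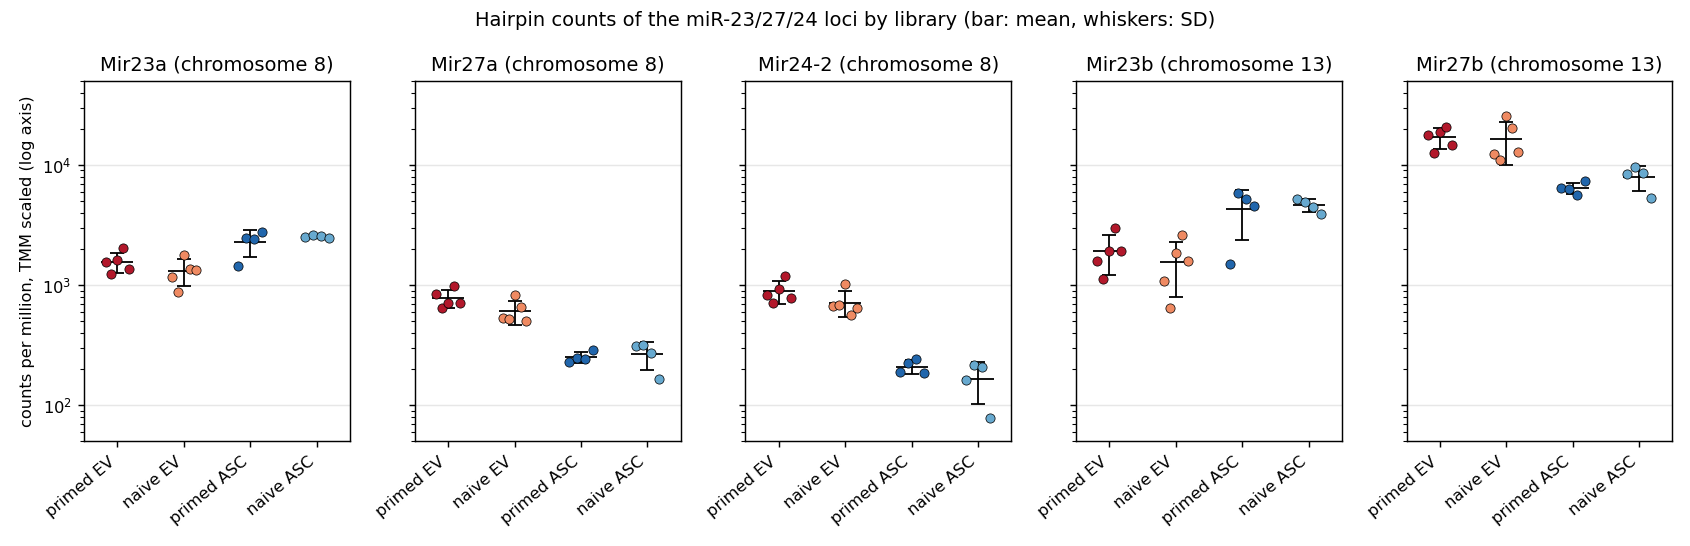
Normalised counts of each member by library, in CPM on a log axis, with the group mean and SD as bar and whiskers. Mir27a, Mir24-2 and Mir27b sit higher in all EV libraries than in any ASC library, and Mir23a and Mir23b sit lower in EVs, apart from primed ASC 2 at 1445 and 1503 CPM.

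All 5 members passed in naive EVs over naive ASC, 3 higher and 2 lower, where 66.1% of the 245 loci tested passed, 33.5% higher and 32.7% lower, and 68.6% had an unadjusted p under 0.05. All 5 also passed in primed EVs over primed ASC, with the same 3 higher and 2 lower, where 68.2% of loci passed, 35.9% higher and 32.2% lower, and 70.6% had an unadjusted p under 0.05. With so many loci passing, the count of members alone does little to set them apart from the other loci. All 5 members had groups without overlap in the naive comparison, against 58.4% of loci, and 3 of 5 in the primed one, against 53.5%. The median log2 fold change of the members was 1.04 in the naive and 1.41 in the primed comparison, beside -0.24 and 0.02 over all loci tested. With 3 members higher and 2 lower, this median is the value of Mir27b and does not show that the set was raised. Together the 5 members took 1.85% ± 0.468 of raw counts in naive EVs (SD, n = 5) and 1.97% ± 0.103 in naive ASC (n = 4). In primed EVs they took 1.65% ± 0.196 (n = 5) and in primed ASC 1.66% ± 0.312 (n = 4).

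The size of these differences depends on the scaling. When counts were scaled by library totals only, the median over the 245 loci was -0.70 in the naive and -0.69 in the primed comparison, and the passing loci split into 65 higher and 116 lower in naive EVs (82 and 80 with TMM) and 58 higher and 118 lower in primed EVs (88 and 79 with TMM). All members kept their sign and their calls, and the primed values became -1.28 for Mir23a, -1.92 for Mir23b, 0.91 for Mir27a, 1.36 for Mir24-2 and 0.68 for Mir27b (edgeR quasi-likelihood test, adjusted p from 5.65e-06 to 0.00192). These are shares of the counted miRNA, and in bulk samples fewer vesicles or cells of a kind and less RNA in each cannot be told apart.

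**Figure D2:**
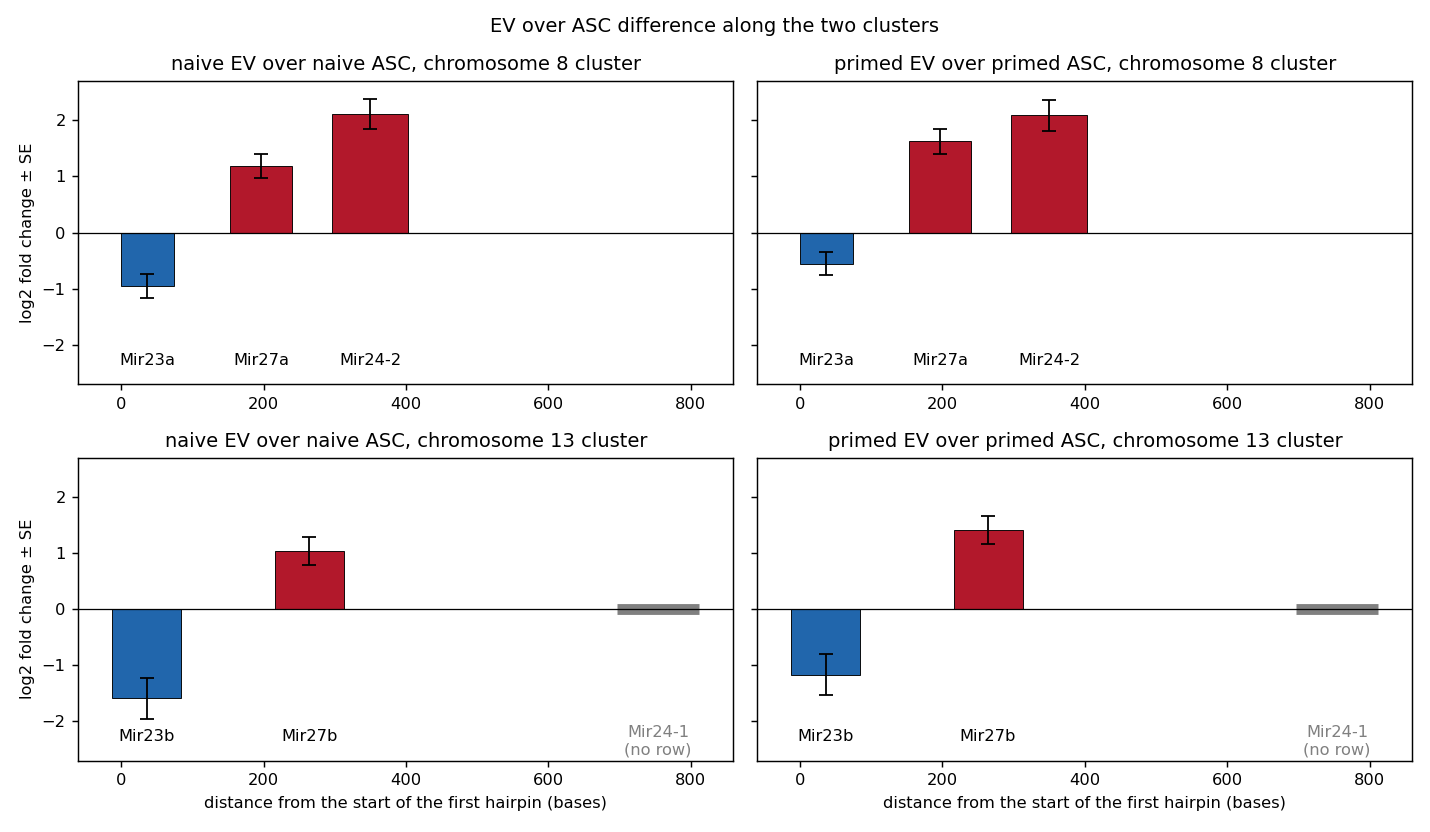
Log2 fold change of EVs over ASC, with its SE, drawn at the place of each counted hairpin along its cluster, in bases from the start of the first hairpin. The first hairpin of each cluster is lower in EVs (-0.95 and -0.55 for Mir23a, -1.59 and -1.17 for Mir23b) and the later ones are higher, and grey marks the Mir3074-1 row at the place of Mir24-1, for which no difference is drawn.

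Ratios between loci of 1 cluster show the same contrast without any scaling between libraries, since both counts come from the same library. Each sets a locus already found higher in EVs over a locus already found lower, with TMM and with library totals. The direction of the differences between EVs and ASC was thus set beforehand and adds no support. Ratios and paralog shares were tested by exact two-sided permutation of libraries between groups, 20 tests in all, adjusted together by Benjamini-Hochberg. A further 8 planned tests needed a Mir24-1 row and could not be made. With 5 against 4 libraries the smallest p this test can give is 0.0159.

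On chromosome 13, Mir27b had 11.5, 17.0, 14.0, 7.77 and 8.10 counts for each count of Mir23b in naive EV 1 to 5, against 1.60, 1.94, 1.92 and 1.36 in naive ASC. In primed EVs the ratio was 11.3, 11.1, 9.91, 6.95 and 7.61, against 4.24, 1.08, 1.07 and 1.60 in primed ASC. Every EV library had a higher ratio than every ASC library. Mean log2 ratios were 3.48 ± 0.49 for naive EVs (SD, n = 5) and 0.75 ± 0.25 for naive ASC (n = 4), a 6.61-fold difference (exact permutation p = 0.0159, adjusted p = 0.0529). They were 3.20 ± 0.32 for primed EVs (n = 5) and 0.74 ± 0.94 for primed ASC (n = 4), a 5.50-fold difference (exact permutation p = 0.0159, adjusted p = 0.0529), and the wide spread of primed ASC came from library 2.

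On chromosome 8 the ratio of Mir27a to Mir23a had a mean log2 of -1.10 ± 0.24 for naive EVs (SD, n = 5) and -3.29 ± 0.42 for naive ASC (n = 4), a 4.58-fold difference. In the primed libraries it was -0.996 ± 0.12 in EVs (n = 5) and -3.14 ± 0.33 in ASC (n = 4), a 4.43-fold difference. The ratio of Mir24-2 to Mir23a was at -0.86 ± 0.33 for naive EVs (n = 5) and -4.04 ± 0.65 for naive ASC (n = 4), 9.05-fold. With priming it was -0.81 ± 0.05 for EVs (n = 5) and -3.41 ± 0.41 for ASC (n = 4), 6.05-fold. None of the 4 pairs of groups overlapped, and each reached the smallest exact permutation p of 0.0159. All 6 within-cluster ratio differences between EVs and ASC had the adjusted p of 0.0529, which misses 0.05, so 0 of 20 tests passed after adjustment and 6 of 20 had an unadjusted p under 0.05. These 6 were at the smallest p that their group sizes allow, so a wider gap between groups could not have lowered their adjusted p.

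**Figure D3:**
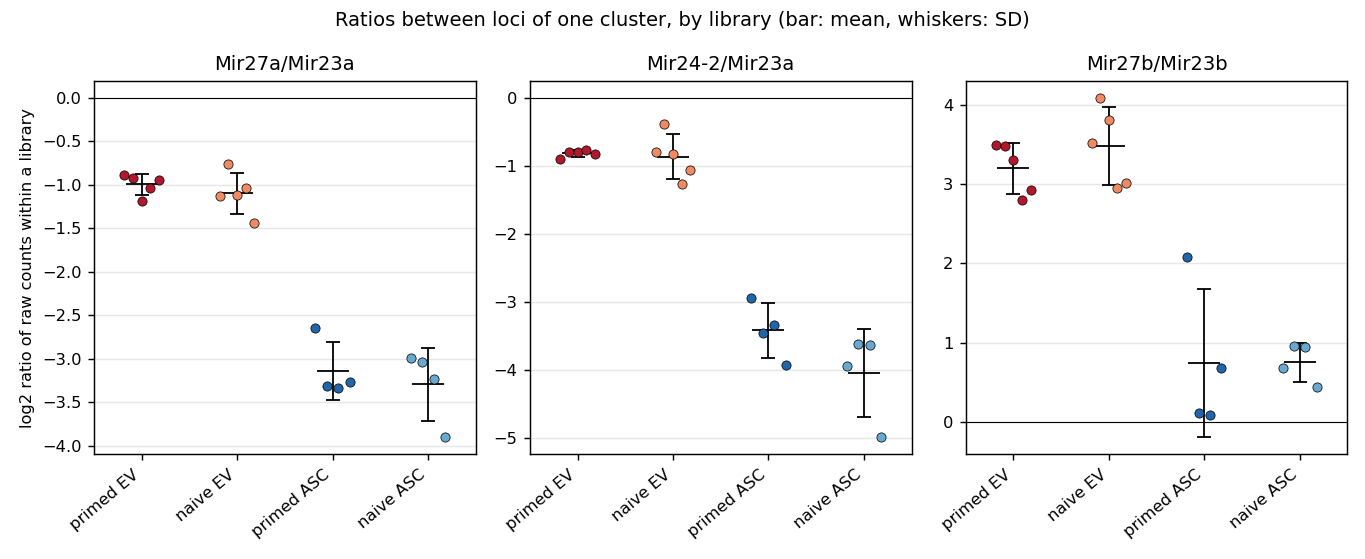
Log2 ratio of raw counts between loci of 1 cluster in each library, with the group mean and SD as bar and whiskers. EV libraries lie above ASC libraries for all 3 ratios, and primed ASC 2 is the highest ASC library in each.

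The balance between paralogs of a family shifted less. Of the summed Mir23a and Mir23b counts, Mir23a made up 47.9% ± 8.72 for naive EVs (SD, n = 5) and 35.5% ± 2.72 for naive ASC (n = 4) (exact permutation p = 0.0635, adjusted p = 0.141). Its share was 45.8% ± 5.18 for primed EVs (n = 5) and 37.0% ± 8.73 for primed ASC (n = 4) (exact permutation p = 0.0952, adjusted p = 0.188). Of the 2 miR-27 loci, Mir27a made up 3.73% ± 0.613 for naive EVs (n = 5) and 3.22% ± 0.275 for naive ASC (n = 4), and 4.42% ± 0.498 for primed EVs (n = 5) and 3.79% ± 0.260 for primed ASC (n = 4) (exact permutation p = 0.127 and 0.0635, adjusted p = 0.212 and 0.141). The ranges overlapped in all 4 cases. Mir27b thus gave most of the miR-27 locus counts in every group, while the miR-23 loci were of the same order.

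Because the 3p arms of paralogs differ by 1 base, both paralogs were also summed and tested as 1 feature. The summed miR-23 loci were lower in naive EVs than in naive ASC at -1.32 (SE 0.29; edgeR quasi-likelihood test, adjusted p = 0.000523) and in primed EVs than in primed ASC at -0.93 (SE 0.29; adjusted p = 0.00787). The summed miR-27 loci were higher at 1.05 (SE 0.24; adjusted p = 0.000805) and 1.41 (SE 0.25; adjusted p = 4.14e-05). Both loci of each family already had the same sign, so the signs of the sums were set beforehand and add no support. Mir27b gave most of the miR-27 sum. Reads left out because they map to both paralogs are missing from the sums as well.

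Per 100 bases of counted locus, Mir27b averaged 16900 ± 6536 CPM for naive EVs (SD, n = 5) and 8220 ± 1943 CPM for naive ASC (n = 4). In naive EVs it was followed by Mir23a at 1744 ± 442 and Mir23b at 1593 ± 767 CPM per 100 bases, which did not differ beyond their spread, and by Mir27a at 697 ± 157 and Mir24-2 at 669 ± 163, which did not either. The order within both pairs came from the division by length. Before it, Mir23b averaged 1545 and Mir23a 1308 CPM in naive EVs, and Mir24-2 averaged 716 and Mir27a 606 CPM. In naive ASC the order was Mir23b at 4783 ± 606, Mir23a at 3375 ± 95.5, Mir27a at 307 ± 82.3 and Mir24-2 at 154 ± 58.4 CPM per 100 bases. The chromosome 8 members together took 0.239% ± 0.0313 of raw counts in naive EVs and 0.379% ± 0.0287 in naive ASC, and the chromosome 13 members 1.61% ± 0.446 and 1.59% ± 0.124. The chromosome 13 sums were alike although both of their loci differed, since Mir27b was higher and Mir23b lower in EVs.

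Loci typical of other cells also differed between EVs and ASC. Of 7 blood and red cell marker loci, 6 had a row, none of these was at 0 in any group, and their summed share was 0.147% to 0.625% of counts in primed EVs and 0.00916% to 0.0559% in primed ASC, and 0.361% to 1.49% in naive EVs and 0.0129% to 0.0214% in naive ASC. Mir126a, the endothelial marker, took 0.198% to 0.496% in primed EVs and 0.00601% to 0.0592% in primed ASC, and 0.319% to 0.902% in naive EVs and 0.0105% to 0.0288% in naive ASC. Their part in the EV values of the miR-23/27/24 loci was not tested. Epithelial markers ranged from 0.000721% to 0.287% in EV libraries and from 0.00391% to 0.270% in ASC libraries. Mir141 was higher in naive EVs over naive ASC (5.28) and in primed EVs over primed ASC (4.07, log2 fold changes, edgeR). Mir200a (3.36) passed only in the naive and Mir429 (4.81) only in the primed comparison, and Mir200b, Mir200c and Mir205 passed in neither. Among the epithelial markers, Mir205 and Mir200b were highest in libraries 3 and 4 of every group, and Mir429 and Mir200a in every group but primed ASC. Mir205 had 925 and 1912 CPM in naive EV 3 and 4, against 10.8 and 15.4 CPM in naive EV 1 and 2. Whether this bears on the members was not tested. The liver marker Mir122 reached at most 0.00196%, and muscle markers at most 0.00318%.

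The second question was whether interferon gamma changed these loci, in EVs or in cells. No member passed in either comparison, by edgeR, DESeq2 or limma-voom, and for none was the priming effect in EVs shown to differ from that in ASC. The log2 fold changes of primed over naive EVs were 0.36 (SE 0.20) for Mir27a, 0.31 (SE 0.24) for Mir24-2, 0.31 (SE 0.35) for Mir23b, 0.25 (SE 0.20) for Mir23a and 0.05 (SE 0.23) for Mir27b (edgeR quasi-likelihood test, adjusted p from 0.529 to 0.941). The sign of Mir27b turned under 6 alternatives and that of Mir23a with library totals alone, as given with the processing below.

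By group, Mir27a averaged 779 ± 136 CPM in primed EVs and 606 ± 137 CPM in naive EVs (SD, n = 5 each), and Mir23b 1914 ± 692 CPM in primed and 1545 ± 744 CPM in naive EVs. All 5 members had overlapping groups. Of all 245 loci 0.816% passed in this comparison and 2.45% had groups without overlap, and 10.2% had an unadjusted p under 0.05, which 0 of 5 members had.

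Primed over naive ASC gave 0.33 (SE 0.27) for Mir24-2, -0.08 (SE 0.23) for Mir27a, -0.11 (SE 0.39) for Mir23b, -0.15 (SE 0.22) for Mir23a and -0.31 (SE 0.25) for Mir27b (edgeR quasi-likelihood test, adjusted p from 0.463 to 0.882). Mir24-2 averaged 210 ± 27.8 CPM in primed ASC and 165 ± 62.5 CPM in naive ASC (SD, n = 4 each), and Mir27b 6411 ± 720 CPM in primed and 7973 ± 1885 CPM in naive ASC. All groups overlapped, and 0 of 5 members had an unadjusted p under 0.05, against 23.3% of loci. In this comparison 10.2% of the loci tested passed, with 5.31% higher and 4.9% lower (13 and 12 loci, against 18 and 5 with relative log expression factors), and 11.4% had groups without overlap. The signs of Mir27a and Mir23b turned under several alternatives.

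The difference between the priming effects, EVs minus ASC, was 0.44 (SE 0.30) for Mir27a, 0.42 (SE 0.52) for Mir23b, 0.40 (SE 0.30) for Mir23a, 0.37 (SE 0.34) for Mir27b and -0.02 (SE 0.36) for Mir24-2 (edgeR quasi-likelihood test, adjusted p from 0.532 to 0.989). None of the 245 loci passed this test (0.0%) or limma-voom, and DESeq2 passed 3, none of them a member. An unadjusted p under 0.05 was found for 10.6% of loci and for 0 of 5 members. With an SE of 0.52, a difference of the size fitted for Mir23b was not detectable with these libraries. Primed EVs had a Mir27a share of the miR-27 loci 0.690 points above naive EVs and primed ASC 0.574 points above naive ASC (exact permutation p = 0.103 and 0.0571, adjusted p = 0.188 and 0.141).

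**Figure D4:**
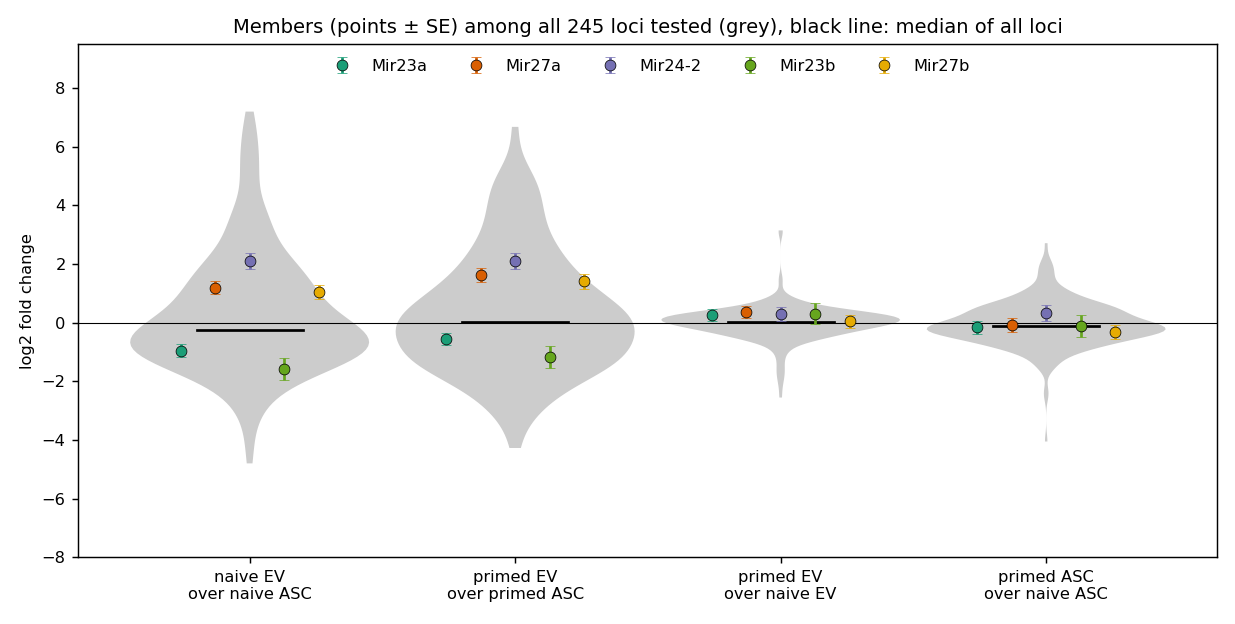
Log2 fold changes of the members with their SE as coloured points, over the distribution of all 245 loci tested in grey, with the median of all loci as a black line. In both EV over ASC comparisons Mir27a, Mir24-2 and Mir27b lie above the median and Mir23a and Mir23b below it, and in both priming comparisons all members lie near 0.

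Likeness of pattern was described by Pearson's r of log2 CPM over the 18 libraries, which share the difference between EVs and ASC. Mir23a was most like its paralog Mir23b (0.949), and its likeness to Mir27a and Mir24-2 of its own cluster was -0.566 and -0.655. Mir27a was about as like Mir24-2 (0.961) as like Mir27b on the other chromosome (0.955). Outside the clusters, the nearest loci to Mir23a were Mir652 (0.899), Mirlet7b (0.879) and Mir99a (0.848), and to Mir23b they were Mir652 (0.891), Mir139 (0.865) and Mirlet7b (0.815). For Mir27a they were Mir22 (0.959), Mir30a (0.958) and Mir542 (0.954), for Mir24-2 Mir22 (0.967), Mir542 (0.961) and Mir30e (0.961), and for Mir27b Mir30a (0.968), Mir186 (0.940) and Mir192 (0.935).

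Other miRNAs linked to adipocyte differentiation, the process for which miR-27 is known, are given for comparison, and the share of them that passed was near that of all loci tested. Of 37 such loci 30 were tested, and 11 were higher and 7 lower in naive EVs than in naive ASC, 60.0% in all beside 66.1% of all loci, with a median log2 fold change of 0.10 against -0.24 over all loci. Mir30e, of a family that favours adipocyte formation, was at 3.24 (SE 0.23) and Mir21a at 3.07 (SE 0.22), while Mir193b, linked to brown fat, was at -3.21 (SE 0.27) and Mir145a at -2.79 (SE 0.23). In primed EVs over primed ASC 13 were higher and 8 lower, 21 of 30 in all beside 68.2% of all loci (median 0.07 against 0.02), led by Mir21a at 3.58 (SE 0.22) and Mir30e at 3.34 (SE 0.23), with Mir193b at -3.58 (SE 0.27) and Mir125b-1 at -2.52 (SE 0.15). In primed over naive ASC 2 were higher, Mir125b-2 at 0.98 (SE 0.18) and Mir125b-1 at 0.68 (SE 0.16), and 1 was lower, Mir143 at -0.89 (SE 0.23), 3 of 30 in all beside 10.2% of all loci. In primed over naive EVs 0 of the 30 passed edgeR's quasi-likelihood test, 5 (16.7%, beside 10.2% of all loci) had an unadjusted p under 0.05, DESeq2 passed 2 and limma-voom 0.

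Mir24-2 is not the only locus whose mature arm is copied elsewhere. RefSeq holds 96 other loci with a mature miRNA that stands whole in another hairpin, of which 84 had a row and 30 were tested. Of these, 5 were higher and 8 lower in naive EVs over naive ASC, 43.3% beside 66.1% of all loci (median -0.22 against -0.24 over all loci), with Mirlet7f-2 at 1.96 (SE 0.34), Mir196a-2 at 1.68 (SE 0.27), Mir29b-1 at -2.702 (SE 0.49) and Mir129-2 at -2.32 (SE 0.48). In primed EVs over primed ASC 8 were higher and 10 lower, 60.0% beside 68.2% of all loci (median -0.42 against 0.02), with Mirlet7f-2 at 2.55 (SE 0.36), Mir196a-2 at 2.07 (SE 0.28), Mir129-2 at -2.95 (SE 0.49) and Mir26a-2 at -1.95 (SE 0.62). Primed ASC had 2 of them higher than naive ASC, Mir218-1 at 1.88 (SE 0.39) and Mir125b-2, 6.67% beside 10.2% of all loci. Between primed and naive EVs 0 passed edgeR's quasi-likelihood test, 7 (23.3%, beside 10.2% of all loci) had an unadjusted p under 0.05, DESeq2 passed 1 and limma-voom 0. Such loci share the limit of Mir24-2, that reads of the copied arm may be missing from their counts.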

How the data were processed

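The authors deposited raw, unnormalised counts per annotated miRNA hairpin locus in 1 file for each library. Per the file headers, featureCounts 1.5.3 counted reads on Ensembl release 76 miRNA genes, unstranded and with default handling of multi-mapped reads and overlaps. STAR 2.0.4, bcl2fastq, Subread and featureCounts 1.45 with GRCm38 stand in the submitters' processing notes. How reads were trimmed and aligned is not given in the sources used here. Hairpin counts do not separate the 5p and 3p arms, and reads carry no molecular identifiers. Of 2009 loci 1894 were matched to GENCODE M21 by identifier, and the other 115 held 5 counts in all. Sequences come from RefSeq (GRCm38.p6). The 3p arm of Mir23b is shown as the matching stretch of its hairpin.

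From the deposited counts, edgeR 4.0.16 in R 4.3.3 kept 245 loci by filterByExpr over the 4 groups (min.count 10), with 99.9573% of counts, scaled them by TMM and fitted group means over 18 libraries together, so that all groups share an estimate of the spread. Each contrast was tested by quasi-likelihood, with Benjamini-Hochberg adjustment over the 245 loci and a threshold of 0.05. SE was taken as |log2 fold change| divided by the root of F. CPM use TMM-scaled totals. Ratios used exact permutation tests in scipy 1.17.1. The fit was tested on simulated data. Alternatives were other scalings and filters, DESeq2 1.42.0, limma-voom (limma 3.58.1), fits of only the groups compared, replicate blocks and leaving out each library.

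Members and lists were chosen with earlier results of these data known. All members with a row are named in each comparison, together with the 3 most alike loci per member and, from each list, the passing loci with the 2 largest positive and 2 largest negative log2 fold changes. The planned miR-24 sum and the ratios with Mir24-1 could not be made, since that locus had no row to analyse.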

Additional observations from a re-analysis of the deposited data

Results flagged for a closer look

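In naive EV 3, Mir24-2 was at 1017 CPM while the other 4 naive EV libraries lay between 565 and 677 CPM, a gap of 0.751 of the group's range. In primed ASC 2, the log2 ratio of Mir27a to Mir23a was -2.65, against -3.34 to -3.27 in the other 3 primed ASC libraries, a gap of 0.9 of the range. Of 40 groups of values screened in this way these 2 stood out, and chance alone marks about 1 group in 20. Both libraries were left out in turn in the fits given with the processing, and no call on a member between EVs and ASC was lost without either.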

How the results depend on the processing

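Between EVs and ASC all 5 members kept direction and call under 10 alternatives and without each of the 18 libraries, except Mir23a in primed EVs over primed ASC with no filter on low counts (-0.454, edgeR adjusted p = 0.174), which left 4 members called in place of 5. Over the 10 alternatives the naive values ran from -1.45 to -0.78 for Mir23a, -2.09 to -1.42 for Mir23b, 0.72 to 1.36 for Mir27a, 1.67 to 2.29 for Mir24-2 and 0.55 to 1.20 for Mir27b. Without single libraries the primed values ran from -0.77 to -0.45 for Mir23a and from -1.51 to -1.05 for Mir23b. Under every alternative run, 0 members, families and ratios passed in the priming comparisons.

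Signs of small priming values turned without a call, and the cause was not tested. In primed over naive EVs, Mir27b was at -0.018 with relative log expression factors and with DESeq2, -0.082 with TMMwsp, -0.218 with library totals, -0.038 with a stricter filter and -0.039 with only these groups, and from -0.027 to 0.327 without single libraries. Mir23a was at -0.033 with library totals. The summed miR-27 loci were at -0.012 with relative log expression factors and with DESeq2, -0.074 with TMMwsp, -0.206 with library totals and -0.027 with a stricter filter, and from -0.047 to 0.299 without single libraries. In primed over naive ASC, Mir27a was at 0.039 with relative log expression factors, 0.038 with DESeq2, 0.051 with TMMwsp, 0.028 with a stricter filter and 0.024 with only these groups, and from -0.194 to 0.072 without single libraries. Mir23b was at 0.029 with relative log expression factors and with DESeq2, 0.041 with a stricter filter and 0.006 with only these groups, and from -0.274 to 0.187 without single libraries, and Mir23a ran from -0.278 to 0.043. The summed miR-23 loci were at 0.012 with relative log expression factors and with DESeq2, 0.001 with TMMwsp and 0.04 with a stricter filter, and from -0.2 to 0.163 without single libraries. For the difference of priming effects Mir24-2 was at 0.048 without a filter and from -0.32 to 0.076 without single libraries. With medians, primed minus naive ASC was -0.538 points for the Mir23a share and -0.157 for log2 Mir27a/Mir23a. Without single libraries the Mir23a share ran from -5.49 to 0.375 points in EVs and from -2.42 to 4.08 in ASC, log2 Mir24-2/Mir23a from -0.0517 to 0.168 in EVs, and in ASC log2 Mir27a/Mir23a from -0.0533 to 0.249 and log2 Mir27b/Mir23b from -0.460 to 0.204.

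With a replicate block by the number in the source name, Mir27a was at 0.046 in primed over naive ASC, and with a replicate block by title number it was at 0.036 and Mir23b at 0.002. Neither block changed a call, and by source name the naive EV over naive ASC values were -0.862 for Mir23a, -1.485 for Mir23b, 1.247 for Mir27a, 2.208 for Mir24-2 and 1.086 for Mir27b. Deviations of same-numbered libraries correlated from -0.161 to 0.525. By source name, numbers 2 to 4 gave 0.252 to 0.525, number 1 gave 0.424 and 0.129, and number 5 gave -0.161 to 0.0755. The block by source name lowered the SE of Mir23b from 0.369 to 0.213 in naive EVs over naive ASC. In primed EVs over primed ASC that SE went from 0.367 to 0.21. What same-numbered libraries share is not stated in the labels and was not tested, and the main fit did not pair them. The shallowest library, primed ASC 4, held 58 counts each of Mir27a and Mir24-2, which limits how small a difference can be seen there.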
